A study of Mus musculus with 16 samples.

Results

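COUP-TF nuclear receptors were measured with 4 probes for 3 genes, out of 55681 probes carrying 31982 gene names. All probes whose gene name in the scanner output is Nr2f1, Nr2f2 or Nr2f6 were taken, which gave 2 probes for Nr2f1 (COUP-TFI), 1 for Nr2f2 (COUP-TFII) and 1 for Nr2f6 (also called EAR2). The cells were cardiomyocytes of wild-type CD1 mice, sorted by their surface level of integrin alpha 6 (ITGA6, CD49f). At embryonic day 15.5, viable ERBB-2-positive cells were sorted into an ITGA6-low fraction (EL) and an ITGA6-high fraction (EH). At postnatal day 2, non-myocytes were first depleted and the remaining viable cells were gated on ITGA6 alone, which gave PL as the low and PH as the high fraction. Each group held 4 microarrays, each from a pool of 20 to 30 embryonic or 15 neonatal hearts, so no value belongs to a single animal. The gates define the fractions by a surface level and not by the chamber the cells came from. The share of probes well above background, as marked by the scanner software, was 38.9 to 41.0% in EL and 40.9 to 46.5% in EH at E15.5, and 35.7 to 39.8% in PL and 37.0 to 40.6% in PH at P2.

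COUP-TFs are orphan members of the nuclear receptor family, transcription factors without an established natural ligand. They bind direct repeats of the half-site AGGTCA as dimers, often as repressors, and compete for such sites with retinoid receptors. In the heart, COUP-TFII is known as a factor of atrial cardiomyocyte identity and of venous endothelium.

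All 4 probes lie on the minus strand, and their first 30 bases are shown because every value below rests on these few hybridisation targets. In mm9, the build named in the header of the scanner output, Nr2f1 probe 1 lies at chr13:78328723-78328782, Nr2f1 probe 2 at chr13:78328290-78328349, the Nr2f2 probe at chr7:77496873-77496932 and the Nr2f6 probe at chr8:73898098-73898157.
Nr2f1 probe 1: ctgatctgtaagtacattggaaaggaaaga
Nr2f1 probe 2: atttttgatataaccctttgcttcttataa
Nr2f2: ggcccttttccttgtttgctttgtgttagc
Nr2f6: tgtcatgggtatctggaaaggccactgcag
Across the whole probes, the longest run of bases shared by any pair was 4 to 8, and no longer stretch was common to any of them.

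Nr2f1 and Nr2f2 were far higher in the ITGA6-high than in the ITGA6-low fraction at both stages, while Nr2f6 was bright in every fraction and slightly lower in the ITGA6-high cells. Of the 4 probes, 3 were called higher in EH than in EL and the same 3 in PH than in PL, where a call needs a limma p that stays within 0.05 after Benjamini-Hochberg adjustment over all probes, and a change of 3-fold or more. Over the whole microarray, 1.17% of probes were called higher in EH and 1.73% in PH, and 0.454% and 0.916% were called lower. All values are quantile-normalized signals unless a log2 scale is named, and folds are taken between means of log2 signals, so they can differ from the ratio of the mean signals.

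Nr2f1, a transcription factor best known from neural development, was followed by both of its probes. On probe 1, EL samples 2, 3, 6 and 8 had signals of 137.5, 103, 74.0 and 70.8, and the same-numbered EH samples had 6010, 5978, 5242 and 5271. The PL samples 2, 3, 4 and 5 had 18.8, 57.8, 61.9 and 29.6, and the PH samples had 2032, 2375, 2083 and 2199. The lowest ITGA6-high sample was far above the highest ITGA6-low sample at both stages. Groups that did not overlap, with the ITGA6-high samples higher by any margin, were found for 7.02% of all probes at E15.5 and 6.54% at P2. The probe was well above background on all 16 microarrays. EH exceeded EL 60.4-fold (log2 difference 5.92, SE 0.32, adjusted p = 1.32e-07) and PH exceeded PL 57.7-fold (log2 difference 5.85, SE 0.32, adjusted p = 3.52e-08). The difference between both stages was -0.07 on the log2 scale (95% interval -1.06 to 0.92, adjusted p = 0.975), an interval that holds changes in either direction.

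Probe 2 of Nr2f1 gave the same picture at dimmer signals. EL samples 2, 3, 6 and 8 had 58.9, 34.45, 38.1 and 27.85, and the EH samples had 2461, 2700, 2676 and 2219. The PL samples 2, 3, 4 and 5 had 5.04, 15.8, 21.3 and 3.65, none of them well above background, and the PH samples had 721, 917, 814 and 1160. Again no ITGA6-low sample reached an ITGA6-high one. EH exceeded EL 65.4-fold (log2 difference 6.03, SE 0.46, adjusted p = 1.90e-06). At P2 the low fraction has only an upper bound, so the PH signal is given as at least 45.7-fold higher than PL (adjusted p = 2.86e-07), against the lowest signal that counted as well above background on the same microarrays. The 2 Nr2f1 probes correlated with r = 0.993 over the 16 microarrays, a description that mostly carries the group difference.

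Nr2f2 rose between the fractions as well. EL samples 2, 3, 6 and 8 had signals of 76.3, 51.8, 61.9 and 50.7, and EH samples had 1513, 1422, 1364 and 1328. The PL samples 2, 3, 4 and 5 had 11.83, 19.65, 22.62 and 10.66, and PH samples had 1177, 1136, 1150 and 1256. The probe was well above background on every microarray except those of PL, where it passed on none, and the fractions did not overlap. EH exceeded EL 23.7-fold (log2 difference 4.57, SE 0.21, adjusted p = 3.14e-08) and PH exceeded PL at least 58.2-fold (adjusted p = 4.07e-10). Normexp with an offset of 50, a background correction that compresses dim signals by construction, gave smaller log2 differences of 3.52 and 3.88 for Nr2f2, 5.17 and 4.45 for Nr2f1 probe 1 and 4.66 and 3.79 for Nr2f1 probe 2, all called, so that the bounds hold for the processed signals only.

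Nr2f6, the third family member and a repressor known mainly from lymphocytes, went the other way by a small margin. EL samples 2, 3, 6 and 8 had 4505, 4472, 4459 and 4501, and EH samples had 3539, 3665, 3431 and 3524. The PL samples 2, 3, 4 and 5 had 4336, 4242, 4612 and 4470, and PH samples had 3641, 3974, 3998 and 3822. Every ITGA6-high sample lay below every ITGA6-low sample of its stage, but the shift was small beside the level. Such a separation with lower ITGA6-high signals was found for 9.08% of all probes at E15.5 and 6.27% at P2. EH was 1.27-fold lower than EL (log2 difference -0.34, SE 0.05, adjusted p = 0.000442) and PH 1.14-fold lower than PL (log2 difference -0.19, SE 0.05, adjusted p = 0.0172), both past the adjusted p and short of 3-fold. At any fold, 8.10% of probes passed the adjusted p for EH against EL and 11.6% for PH against PL. The P2 difference no longer passed with scaling to the 75th percentile (adjusted p = 0.072), with a floor on dim signals (0.334) or with only PL and PH in the fit (0.0575). For each of the 4 probes, both fraction differences had a two-sided exact permutation p of 0.0286, the smallest that 4 against 4 microarrays allow when taken as unpaired. With the E15.5 sample numbers as pairs, 4 pairs could not go below 0.125.

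**Figure D1:**
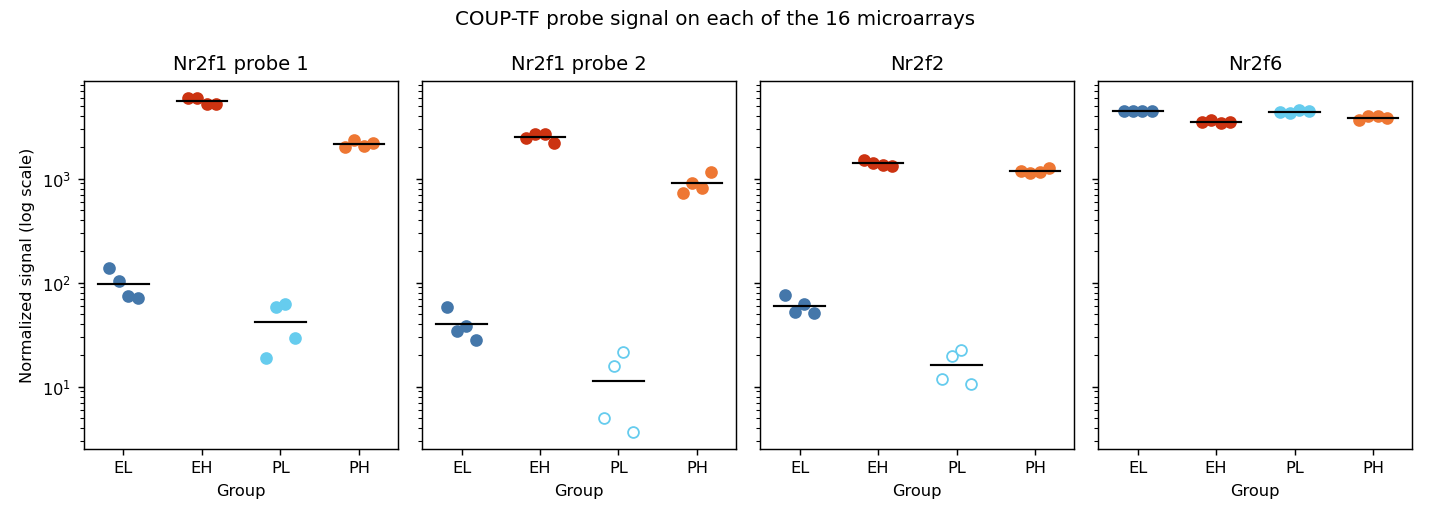
Normalized signal (log scale) of the 4 COUP-TF probes in each sample of EL, EH, PL and PH. Filled points were well above background, hollow points were not, and black lines are group means; for both Nr2f1 probes and Nr2f2 the ITGA6-high samples form a separate band above the ITGA6-low samples, whereas all Nr2f6 samples lie between 3431 and 4612.

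Among the 19349 probes well above background on every EL and EH microarray, the increase from EL to EH ranked 4 for Nr2f1 probe 2, 5 for Nr2f1 probe 1 and 9 for Nr2f2, counted from the highest, and Nr2f6 ranked 15391. Among the 17757 such probes of PL and PH, Nr2f1 probe 1 ranked 8 and Nr2f6 ranked 11889. Nr2f1 probe 2 and Nr2f2 have no rank at P2, since their PL signals were not well above background.

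The E15.5 samples lay on 2 slides, and the fraction differences were of like size on each. On slide 1, with 3 EH and 2 EL samples, EH exceeded EL by 5.86 on the log2 scale at Nr2f1 probe 1, and on slide 2, with 1 EH and 2 EL samples, by 5.91. The corresponding log2 differences were 4.51 and 4.59 for Nr2f2, and -0.33 and -0.38 for Nr2f6. All P2 samples shared slide 3.

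Between the stages, Nr2f1 was lower at P2 in both fractions, whereas Nr2f2 was lower in PL than in EL and passed the test between PH and EH only under 1 alternative, normexp. In these contrasts the stage cannot be told apart from the slide or from the isolation procedure, which used ERBB-2 at E15.5 and depletion at P2. Nr2f1 probe 1 fell from a mean signal of 96.4 ± 31.1 (SD, n = 4) in EL to 42.1 ± 21.1 in PL (log2 difference -1.31, adjusted p = 0.00940), and from 5625 ± 426 in EH to 2172 ± 152 in PH (log2 difference -1.37, adjusted p = 0.00780). Both falls were short of 3-fold, and neither pair of groups overlapped, as was the case for 10.5% of all probes lower in PL and 9.54% lower in PH. Over the settings that keep all samples, the fall from EL to PL was as small as -0.61 on the log2 scale (adjusted p at most 0.0116). Nr2f1 probe 2 fell at least 1.97-fold from EL to PL (adjusted p = 0.00408) and 2.82-fold from EH to PH (adjusted p = 0.0373). The latter no longer passed without EH sample 2, 3, 6 or 8 or PH sample 2, 3 or 4 (adjusted p of up to 0.0857).

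Nr2f2 fell from 60.2 ± 11.8 in EL to 16.2 ± 5.86 in PL, at least 2.93-fold (adjusted p = 1.19e-05). Its ITGA6-high means were 1407 ± 80.9 in EH and 1180 ± 53.4 in PH, a log2 difference of -0.25 (95% interval -0.71 to 0.20, adjusted p = 0.510), although the 4 samples of EH lay above those of PH. With normexp, the same log2 difference of -0.25 passed the adjusted p (0.0266), short of 3-fold. Nr2f6 had means of 4484 ± 22.1 in EL and 4415 ± 161 in PL, which overlapped (log2 difference -0.02, adjusted p = 0.868), and of 3540 ± 96.1 in EH and 3859 ± 165 in PH (log2 difference 0.12, adjusted p = 0.111). Called in these contrasts were Nr2f1 probe 2 and Nr2f2 for PL against EL, where 2.15% of all probes were called lower, and none for PH against EH, where 2.10% were. Both calls rest on PL signals under the background limit and were lost with dim signals raised to that limit (log2 differences -0.98 and -1.55) and with normexp (-0.56 and -0.61), short of 3-fold though past the adjusted p.

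The fraction difference of Nr2f2 was larger at P2 than at E15.5. In this and every other stage difference, too, the stage cannot be told apart from the slide or the isolation procedure. The difference between the stages was 1.69 on the log2 scale (95% interval 1.05 to 2.34, adjusted p = 0.00534), or 3.24-fold, while 0.602% of all probes were called larger at P2. It rests on the PL signals that were not well above background: with dim signals raised to the background limit it was 1.30 (adjusted p = 0.00112), and with normexp it was 0.36 (adjusted p = 0.0775). It was also just short of 3-fold without EL sample 2 (1.57), PL sample 2 (1.57) or PL sample 5 (1.52), still past the adjusted p. The Nr2f1 probes differed by -0.07 and 0.62 (adjusted p = 0.975 and 0.777) and Nr2f6 by 0.15 (adjusted p = 0.419). Under normexp, Nr2f1 probes 1 and 2 had stage differences of -0.72 and -0.87 (adjusted p = 0.0387 and 0.00482), the opposite direction to Nr2f2.

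**Figure D2:**
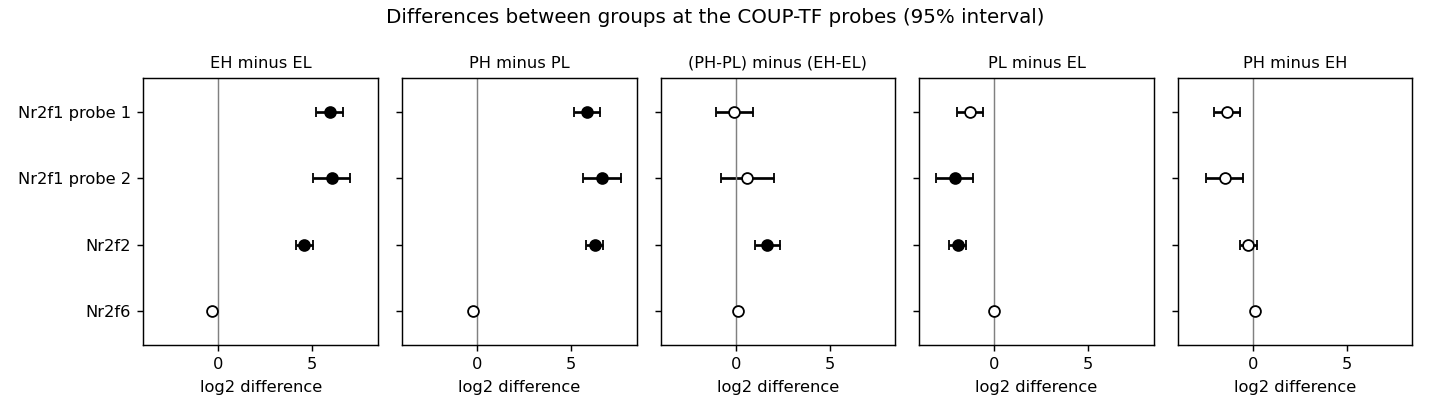
Log2 differences of the 4 COUP-TF probes in the 5 contrasts, with 95% intervals as bars. Filled points were called, hollow points were not, and differences against PL for Nr2f1 probe 2 and Nr2f2 use signals that were not well above background; both fraction contrasts are far right of 0 for Nr2f1 and Nr2f2 and just left of 0 for Nr2f6.

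No other nuclear receptor measured was called at both stages. Of 46 listed receptors, 30 were well above background on all samples of at least 1 group, and 0 of these were called between EH and EL with limma or with the methods' test, an analysis of variance with a Tukey test. At any fold, 6 passed the adjusted p and 11 an unadjusted p of 0.05. Between PH and PL, 2 were called higher and 1 lower, and 12 passed the adjusted p at any fold. Tested alone, the 22247 probes well above background on every sample of some group had 596 called higher and 228 lower in EH. In PH, 854 were called higher and 407 lower. With shares this small, few or no calls among 30 genes say little about the receptors as a group. The median log2 difference of the 30 was -0.03 at E15.5 and -0.04 at P2, beside -0.05 and -0.02 over the 22247 probes. Vdr, the vitamin D receptor, had 131 in PH and 21.2 in PL, where only 1 of 4 samples was well above background (measured log2 difference 2.63, SE 0.56, adjusted p = 0.00558), and the call was lost with the replicate block (adjusted p = 0.0658). Nr1h3, the oxysterol receptor LXR alpha, rose from 107.4 to 355.9 (log2 difference 1.75, SE 0.16, adjusted p = 4.70e-06). At E15.5 it rose from 60.3 to 158.6 (1.39, adjusted p = 7.52e-05), short of 3-fold, and its stage difference of 0.36 did not pass (adjusted p = 0.624). With normexp, none of the receptors was called at P2. Nr5a2, the receptor LRH-1, fell from 33.6 in PL to 11.8 in PH (measured log2 difference -1.71, SE 0.48, adjusted p = 0.0342). Only 1 of 4 PH samples was well above background, and with the floor the difference was -0.80 (adjusted p = 0.165, not called). The call was also lost with the replicate block (adjusted p = 0.1), with the methods' test and without any of 6 single samples. Nr2c2 (TR4), which belongs to the same subfamily as the COUP-TFs, had log2 differences of -0.37 and 0.20, neither past the adjusted p (0.234 and 0.576).

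**Figure D3:**
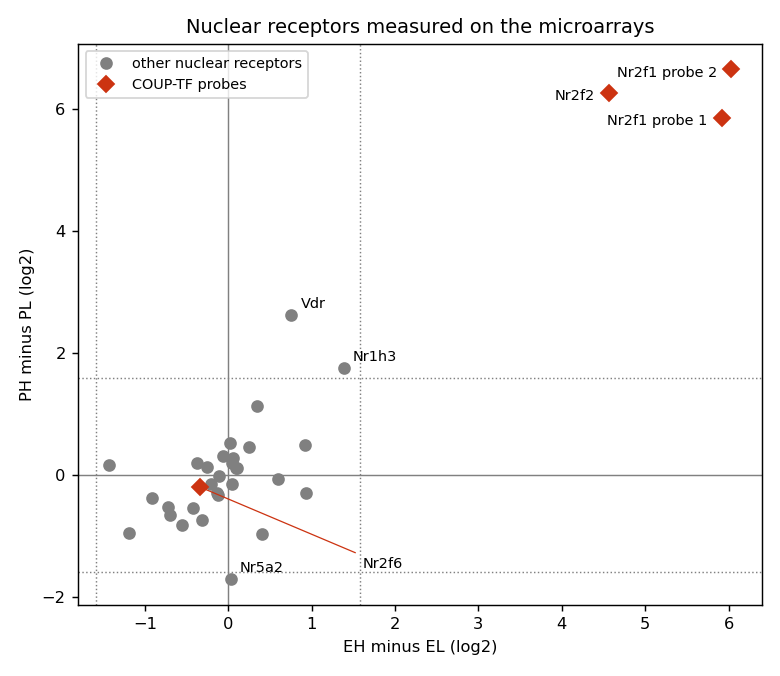
Log2 difference of EH minus EL against PH minus PL for the 4 COUP-TF probes (diamonds) and the 30 other nuclear receptors measured (circles), with dotted lines at 3-fold. Both Nr2f1 probes and Nr2f2 lie at the upper right, apart from the other receptors, and Nr2f6 lies among them.

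Retinoid signalling, whose receptors share DNA sites with COUP-TFs, had 1 called gene in each fraction contrast. Of 19 listed genes, 14 were measured by the same rule. Among these, 1 was called lower and 0 higher in EH, and 1 higher and 0 lower in PH. At any fold, 2 passed the adjusted p in each contrast. Before adjustment, 6 passed for EH against EL and 7 for PH against PL. At the shares of all probes given above, 14 genes would hold few calls in any case. The number of calls therefore says little about the pathway as a whole. Aldh1a1, a retinaldehyde dehydrogenase, fell from 179 in EL to 49.4 in EH (log2 difference -1.94, SE 0.54, adjusted p = 0.0417), a call lost without any of 9 single samples, with the slide term and with normexp. Rbp4, the carrier of retinol in blood, was not well above background in PL and was at least 1.46-fold higher in PH (adjusted p = 0.00012), where 3 of 4 samples were, and the call was lost with the floor (adjusted p = 0.554) and with normexp. The receptor Rara had log2 differences of -0.14 and -0.30 (adjusted p = 0.468 and 0.0311) and the common heterodimer partner Rxra -0.92 and -0.38 (adjusted p = 0.0841 and 0.575). The Rxra probe was dim, with group means of 20.2 to 37.9.

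Of 10 known COUP-TF partners and corepressors, all were measured and 0 were called in either fraction contrast, by limma or by the methods' test, while 2 passed the adjusted p at any fold in each and 4 an unadjusted p of 0.05. At the shares of all probes given above, 10 genes would hold few calls in any case. Zfpm2 (FOG2), a cofactor that binds COUP-TFs and GATA factors, fell from 311 in EL to 212 in EH (log2 difference -0.56, SE 0.10, adjusted p = 0.00313) and had 330 in PL and 270.4 in PH (-0.28, adjusted p = 0.119). Chosen after its values were seen, Bcl11b, a COUP-TF-interacting repressor, was lower in PH (log2 difference -1.42, adjusted p = 0.00232).

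Nr2f2 is also known for its role in veins, and 9 genes tied to it there or in lymphatic vessels were read, of which 6 were measured. The list, named veins and lymphatics below, is not limited to genes expressed in veins, so its members need not share a direction. Of these, 2 were called higher in EH and the same number in PH, and 0 were called lower in either. Chosen after its values were seen, Nrp1 was lower in PH (log2 difference -1.29, adjusted p = 0.00457), short of 3-fold. Without PH sample 3, 1 gene of the list was called lower in PH. Angpt1, the ligand of the TIE2 receptor, rose from 191 in EL to 3572 in EH (log2 difference 4.23, SE 0.15, adjusted p = 2.40e-09) and from 352 to 2751 at P2 (2.98, SE 0.15, adjusted p = 1.20e-08). Nrp2, a coreceptor of lymphatic growth factors, rose from 147 to 621.5 at E15.5 (1.78, adjusted p = 0.0299, lost without any of 5 single samples) and from 13.7 to 53.5 at P2 (measured log2 difference 2.00, adjusted p = 0.0107), where 1 of 4 PL samples was well above background. The P2 call was lost with the floor (log2 difference 1.32) and with normexp (0.59). Foxc1 and Dll4, not measured by this rule, were also called higher in EH, on signals well above background in 3 and 2 of the EH samples. The median log2 difference of the 6 genes was -0.14 at E15.5 and 0.12 at P2.

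Genes of the atrial and ventricular programme were taken in part from the study's own lists, so their direction is no independent evidence. Of 13 atrial genes, 12 were called higher in EH and 13 in PH, and of 9 ventricular genes, 4 were called lower in EH and 9 in PH. At any fold, all 9 passed the adjusted p at E15.5, but Irx3 and Irx5 were higher in EH. Their log2 differences were 0.91 and 1.49 (adjusted p = 0.0147 and 0.0415), short of 3-fold. Tbx5, a T-box factor, rose 2.72 on the log2 scale at E15.5 and 3.53 at P2 (adjusted p = 5.95e-07 and 1.83e-08). Hey2, a ventricular repressor, went from 250 in EL to 10.6 in EH, where 1 of 4 samples was well above background (measured log2 difference -4.95, or -4.18 with the floor, adjusted p = 1.33e-05 and 1.34e-08), and was at least 13.2-fold lower in PH than in PL (adjusted p = 8.90e-07). Irx4, a ventricular homeobox factor, fell by 2.31 at E15.5 and by 5.57 at P2 (adjusted p = 1.83e-07 and 3.59e-11), and the stage difference of -3.26 passed the test (adjusted p = 9.39e-07). Fgf12, an intracellular partner of sodium channels, was at least 64.9-fold higher in EH, and Sln, the calcium pump inhibitor sarcolipin, rose by 6.22 and 6.18 on the log2 scale (adjusted p = 7.14e-06 and 3.57e-06). Bmp10, a secreted growth factor, was at least 10.2-fold higher in EH and 20.1-fold in PH, and the exchanger gene Slc24a4 at least 5.35-fold and 22.7-fold. With normexp, the Slc24a4 log2 difference in EH was 1.00 (adjusted p = 1.04e-06), and that call was lost. The myosin light chain genes Myl1 and Myl7 rose by 5.63 and 3.90 in EH and by 5.19 and 5.90 in PH. Myh7, the slow myosin heavy chain, fell by 1.66 and 4.48 (adjusted p = 2.12e-06 and 1.67e-10), and Lbh, a transcriptional cofactor, fell by 2.51 at E15.5 and fell by 2.85 at P2. Pln, the calcium pump inhibitor phospholamban, had -1.36 at E15.5, short of 3-fold, and was called lower at P2. The homeobox factor Irx3 had 0.91 at E15.5 and fell by 3.97 at P2, and its stage difference was called (adjusted p = 2.02e-06).

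The genomic surroundings of Nr2f2 changed with it at 2 noncoding probes. By RefSeq (GRCm38.p6), Nr2f2 spans chr7:70351946-70366746 on the minus strand, and the noncoding gene B130024G19Rik spans chr7:70365383-70411146 on the plus strand, so that the start regions of both overlap by 1364 bases in opposite orientation. Within 100 kb of the Nr2f2 probe lay 9 other probes, of which 2 were called higher in both EH and PH. The first is the B130024G19Rik probe at chr7:77555944-77556003 (mm9, plus strand), 59.1 kb from the Nr2f2 probe. The second, 87.4 kb away at chr7:77584308-77584367, is named in the scanner output for the noncoding interval chr7:77555482-77634858 on the plus strand, which also holds the B130024G19Rik probe. Both sequences are shown because they are the targets that moved with Nr2f2.
B130024G19Rik: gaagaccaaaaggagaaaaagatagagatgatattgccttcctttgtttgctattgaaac
interval probe: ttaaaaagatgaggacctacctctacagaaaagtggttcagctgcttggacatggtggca
On the B130024G19Rik probe, the EH samples 2, 3, 6 and 8 had 58.5, 27.8, 24.6 and 31.4, all well above background, while no EL sample passed. The PH samples 2, 3, 4 and 5 had 25.9, 25.7, 8.06 and 15.3, of which samples 2 and 3 passed, and again no PL sample did. EH was at least 2.06-fold higher than EL (adjusted p = 8.40e-05). At P2 the measured log2 difference was 2.22 (adjusted p = 0.000566), with no bound on the fold, since the PH mean lay under the background limit of the PL microarrays. The interval probe had 33.0 to 41.8 in EH and 27.1 to 63.3 in PH, and was not well above background on any ITGA6-low sample. It was at least 2.28-fold higher in EH and at least 2.03-fold higher in PH (adjusted p = 0.000136 and 0.000161). A further probe of the same interval, 60.7 kb from Nr2f2, was well above background on all 16 microarrays and had log2 differences of 0.75 and 0.52 (adjusted p = 0.0968 and 0.267).

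Around Nr2f1, 0 of 16 probes were called at either stage by limma or by the methods' test, and 1 and 3 passed an unadjusted p of 0.05. Of the 16, 3 were well above background on all samples of a group. Fam172a, 23.4 kb from probe 1, had log2 differences of 0.49 (adjusted p = 0.00623) and 0.30 (adjusted p = 0.0728). Around Nr2f6, 2 of 14 probes were called higher in EH and 0 were called at P2 by either test, where 3 passed an unadjusted p of 0.05. Both belong to Ushbp1, 10.1 and 11.2 kb away, and the measured one had 78.0, 39.9, 437 and 466 in EH samples 2, 3, 6 and 8 (measured log2 difference 3.80, SE 0.77, adjusted p = 0.00624). Its signals in the same-numbered EL samples were 10.1, 3.72, 25 and 18, of which only that of sample 6 was well above background. No neighbour of Nr2f6 was called lower in an ITGA6-high fraction.

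**Figure D4:**
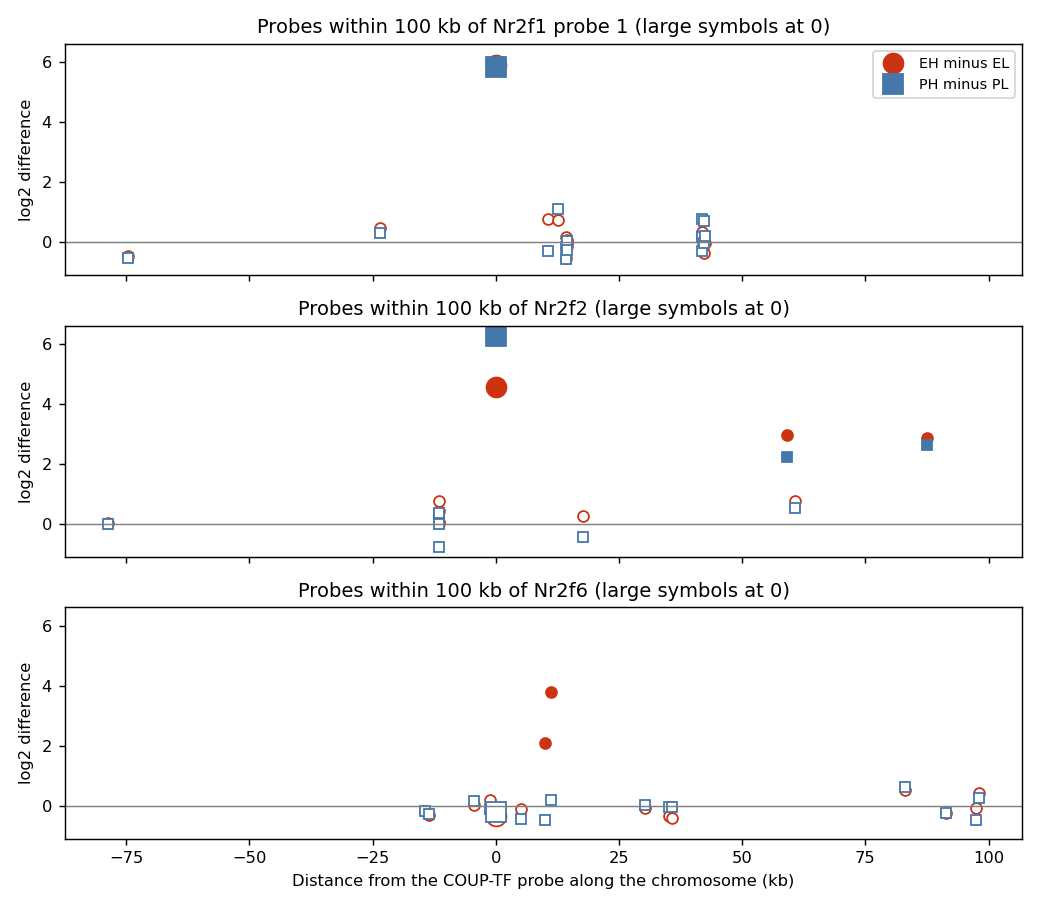
Log2 differences of all probes within 100 kb of the COUP-TF probes against their distance in kb, with circles for EH minus EL and squares for PH minus PL. Filled symbols were called and large symbols at 0 are the COUP-TF probes; beside Nr2f2 itself, only the probes at 59.1 and 87.4 kb are filled at both stages.

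The promoters of the 3 genes differ in base composition. The 250 bases before the RefSeq start (GRCm38.p6, minus strand) are shown because both Nr2f1 and Nr2f2 moved with the fraction and Nr2f6 hardly did; GC boxes (GGGCGG on either strand, overlapping matches counted separately) are in capitals. The windows are chr13:78198874-78199123 for Nr2f1, chr7:70366747-70366996 for Nr2f2 and chr8:71381953-71382202 for Nr2f6.
Nr2f1: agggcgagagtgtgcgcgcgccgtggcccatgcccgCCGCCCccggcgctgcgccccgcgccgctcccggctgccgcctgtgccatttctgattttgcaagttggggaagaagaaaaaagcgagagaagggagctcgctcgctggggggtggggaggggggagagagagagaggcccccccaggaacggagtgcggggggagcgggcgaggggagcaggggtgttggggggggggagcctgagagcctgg
Nr2f2: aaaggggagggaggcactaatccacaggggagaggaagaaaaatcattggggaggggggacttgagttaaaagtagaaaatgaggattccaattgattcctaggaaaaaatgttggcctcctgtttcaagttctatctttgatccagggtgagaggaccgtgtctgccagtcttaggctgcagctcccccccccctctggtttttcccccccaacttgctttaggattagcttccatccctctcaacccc
Nr2f6: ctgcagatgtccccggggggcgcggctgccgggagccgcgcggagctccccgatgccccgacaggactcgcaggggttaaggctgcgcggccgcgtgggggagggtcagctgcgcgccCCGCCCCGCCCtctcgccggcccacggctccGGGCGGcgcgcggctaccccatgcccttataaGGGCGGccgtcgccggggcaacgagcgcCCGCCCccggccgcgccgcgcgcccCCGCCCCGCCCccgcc
Nr2f6 held 7 GC boxes and 82.4% G and C, Nr2f1 held 1 and 72.0%, and Nr2f2 held 0 and a lower content than either. Over 32851 promoter windows, 32.7% held a GC box and the median G and C content was 52.4%. The half-site AGGTCA, found on either strand in 14.0% of all windows, was in 0 of the 3, and its direct repeat with 1 base between was in 0.0335% of all windows and in none of these. A second RefSeq start of Nr2f1 had 39.6% G and C and none of these letters.

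The genes most like each member over the 16 microarrays were looked up among 15627 genes by Pearson correlation of log2 signals, which is mainly a likeness of group means. Nr2f1 probe 1 was followed by Maged1 (r = 0.990), Itga6 (0.988), Cib2 (0.987), Gtdc2 (0.987) and Gprin3 (0.983), where Itga6 encodes the protein used to gate the cells. Nr2f2 was followed by Tle3 (0.989), Faim3 (0.989), Fhad1 (0.987), Fras1 (0.986) and 0610007N19Rik (0.986). Tle3, a Groucho-type corepressor, had mean signals of 233 in EL against 1860 in EH, and of 54.2 in PL against 1350 in PH. Among the genes most like Nr2f6 were Slain2 (0.964), Sorbs2 (0.960), Fam105b (0.959) and Mapre2 (0.948).

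Markers of other cell types moved with some of these contrasts. In sorted pools, fewer cells of a type and less RNA per cell cannot be told apart. Cardiomyocyte markers were bright in all groups, with summed signals of 477800 to 520900 in EL and 675900 to 721500 in EH, and of 771300 to 810500 in PL and 705900 to 794000 in PH. Of the 7 markers, 1 was called in EH, Myh6, with 69330 in EL and 246800 in EH (log2 difference 1.84, adjusted p = 1.18e-07). Actn2 was lower in EH (-0.51, adjusted p = 0.0029), and no other marker of this list passed the adjusted p at E15.5. Most endothelial markers were higher in EH: of 8 listed genes 6 were measured and 5 of these were called higher, beside 1.17% of all probes. Kdr, the other measured gene, had 1037 in EL and 834.2 in EH (log2 difference -0.34, adjusted p = 0.802). The brightest probe of the list was that of Egfl7 in EH and PH and that of Kdr in EL and PL. Their summed signal was 4950, 4090, 10110 and 9710 in EH samples 2, 3, 6 and 8, and 1964 to 2195 in EL. In the same order of EH samples, Nr2f2 had 1513, 1422, 1364 and 1328. Nr2f1 probe 1 had 6010, 5978, 5242 and 5271 there, and Nr2f1 probe 2 had 2461, 2700, 2676 and 2219. At P2, 0 of the 6 were called by limma or by the methods' test (1 passed an unadjusted p of 0.05), the sums overlapped (814.7 to 2105 in PL and 1393 to 2166 in PH), and Cdh5, Emcn and Tie1 were not well above background on any of the P2 microarrays. Eng was so on 2 PH microarrays and no PL microarray. Egfl7 and Kdr were well above background on all of them, with means of 541.7 in PL and 978.3 in PH for Egfl7 (log2 difference 0.86, adjusted p = 0.0506) and of 808.1 and 618.6 for Kdr. The part of these cells in the fraction differences of either stage was not tested. The Ushbp1 signal beside Nr2f6 was highest in EH samples 6 and 8, as was the endothelial sum. Of venous and lymphatic markers, 4 of 7 were measured and 1 was called higher in each fraction contrast, Nrp2 in EH as in PH. Aplnr and Lyve1, too dim to count as measured, had log2 differences of 2.90 and 2.84 in EH (adjusted p = 0.0116 and 0.0156) and of 0.16 and 0.00241 in PH. The sums were 1635 to 1912 in EL and 1539 to 2696 in EH, then 978.9 to 1189 in PL and 1377 to 1631 in PH, with the Ephb4 probe the brightest.

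Fibroblast markers (7 of 8 measured, the Col1a2 probe the brightest) summed to 12830 to 22360 in EL and 5437 to 10460 in EH, and to 522.5 to 1627 in PL and 545.3 to 800.5 in PH. Epicardial markers summed to 1867 to 3210 in EL and 486.4 to 2207 in EH, then to 43.6 to 178.7 in PL and 83.8 to 184.7 in PH. Of 6 epicardial genes measured, 1 was called higher and 0 lower in PH. This was Wt1, at least 1.42-fold higher in PH (adjusted p = 0.000237). Its stage difference was 3.05 on the log2 scale (adjusted p = 0.00472), with no PL sample well above background. The fibroblast and epicardial lists were lower at P2 than at E15.5, as were the Nr2f1 signals. The part of both lists in the stage contrasts was not tested. Leukocyte markers summed to 478 to 1591 in EL and 857 to 6533 in EH, then to 282 to 379 in PL and 199.6 to 323 in PH, and smooth muscle and pericyte markers to 15070 to 18100, 18440 to 22610, 1911 to 2804 and 4982 to 7855. In the latter list the Cnn1 probe was the brightest, and 4 of 5 genes were measured. Of these, 1 was called higher and 1 lower in each fraction contrast. Cspg4 was the lower one in both (log2 differences -1.66 and -1.60, adjusted p = 2.38e-07 and 9.53e-08). Neural and Schwann markers summed to 126 to 219.7 over all samples, with Sox10 not well above background on any microarray.

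**Figure D5:**
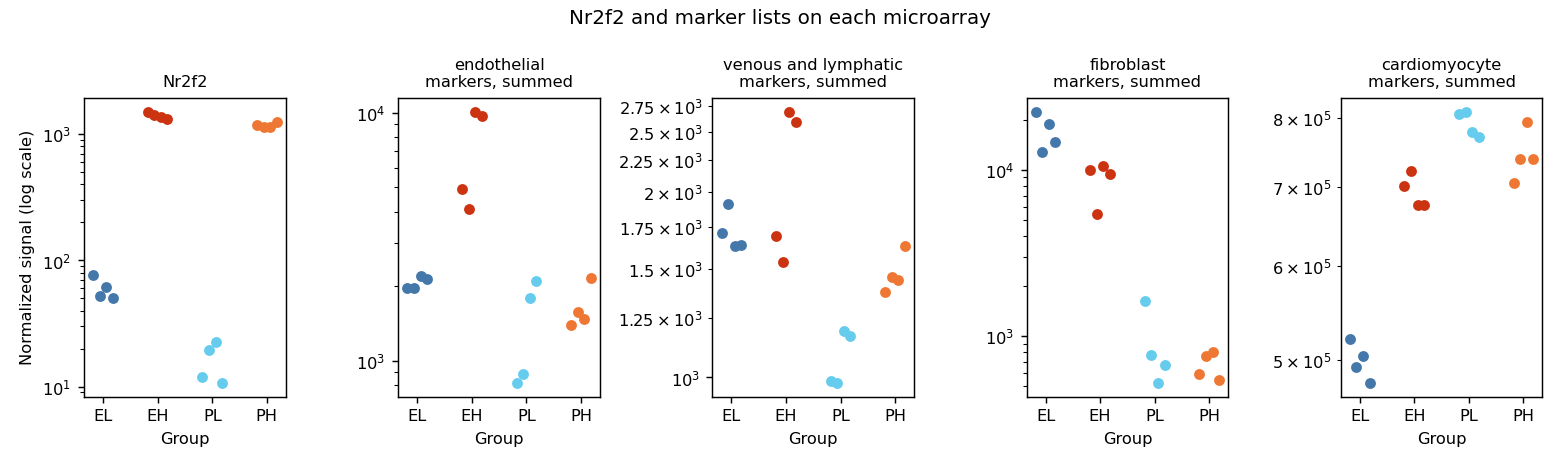
Nr2f2 signal and summed signals of 4 marker lists (log scale, each with its own range) in each sample. Nr2f2 separates the fractions at both stages, whereas the endothelial sum separates them at E15.5 and overlaps at P2.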

How the data were processed

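RNA of 16 pools of sorted cardiomyocytes, 10 ng each, was amplified, labelled with Cy3 and hybridised to 1-colour Agilent mouse microarrays. The authors deposited the scanner output of Agilent Feature Extraction 10.7.3.1, with processed signal intensities (background subtracted) and detection marks, and a table of quantile-normalized log2 values. Controls and outlier spots were left out, spots of a probe were averaged, and processed intensities were quantile normalized and log2 transformed. The result differed from the deposited log2 values by a median of 0.000294. With limma 3.58.1 in R 4.3.3, 1 mean per group was fitted over all 16 microarrays and 55681 probes, with Benjamini-Hochberg adjustment over all probes. Intervals use the standard error with 12 residual degrees of freedom. On simulated data with 55673 probes, 6-fold changes were placed only on probes well above background on all 16 microarrays, without slide or pair effects. For EH against EL, 100 of 100 raised and 99 of 100 lowered were found, and for PH against PL 98 and 99. This recovery does not cover Nr2f1 probe 2 or Nr2f2, which were not well above background in PL. For a gene with several probes in a list, the brightest was used. Genes count as measured where every microarray of some group was well above background. Named were all COUP-TF probes and their neighbours within 100 kb, up to 6 called genes per list, 7 genes regardless of values (Zfpm2, Tbx5, Hey2, Irx4, Rara, Rxra, Nr2c2) and the 5 most correlated genes, of which some are not reported here. The members and lists were chosen with earlier results of these data known. Sample numbers come from the titles. Deviations from the group means correlated between fractions with r = 0.255, 0.189, 0.450 and 0.379 for the E15.5 numbers, which were taken as pairs. For the P2 numbers r was -0.0306 to 0.542. The replicate block used the numbers of both stages, so it also paired the P2 samples. Alternatives were scaling to the 75th percentile, normexp, the deposited table, a filter and a floor on dim probes, a slide term, the replicate block, fits of 2 groups, the methods' test and leaving out single samples. The number of microarrays limits the precision. The paper reports 4 independent sorting experiments for the fractions of each stage, so the 2 fractions of a stage may come from the same sorts.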

Additional observations from a re-analysis of the deposited data

Results flagged for a closer look

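The fraction difference of Nr2f2 itself differed between the stages, by 1.69 on the log2 scale (adjusted p = 0.00534, limma). EH exceeded EL in 4 of 4 sample numbers, as PH did PL, and the difference lies in its size. It passed the adjusted p but fell short of 3-fold without EL sample 2 (1.57, adjusted p = 0.013), without PL sample 2 (1.57, adjusted p = 0.0111) and without PL sample 5 (1.52, adjusted p = 0.00679). The PL signals on which it rests were not well above background in any sample. The stage cannot be told apart from the slide or the isolation procedure in this difference. Among the 4 COUP-TF probes in 4 groups, 0 of 32 distances of an extreme sample from its group exceeded Dixon's critical value.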

How the results depend on the processing

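Under all alternatives run, both Nr2f1 probes and Nr2f2 remained called higher in EH and in PH, with log2 differences of 3.52 to 6.03 for EH against EL and 3.79 to 6.65 for PH against PL over the settings that keep all samples, and 4.49 to 6.24 and 5.52 to 7.07 with single samples left out. Nr2f6 kept its direction and was called under none. The replicate block on the sample number gave the same log2 differences (5.92, 4.57 and -0.34 for Nr2f1 probe 1, Nr2f2 and Nr2f6 at E15.5) and changed no call of a COUP-TF probe in the fraction contrasts or their stage difference, the contrasts it was run for. It called 917 probes for EH against EL, 1447 for PH against PL and 718 for the stage difference, and among the nuclear receptors 1 higher and 0 lower in PH.

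Normexp with an offset of 50, which compresses dim signals by construction, called 207 probes for EH against EL, 418 for PH against PL, 233 for the stage difference, 460 for PL against EL and 426 for PH against EH. Nr2f1 probe 2 then turned to -0.87 for the stage difference and to -0.56 for PL against EL (adjusted p = 0.00194), and Nr2f2 to 0.36 and -0.61 (adjusted p = 9.01e-06). Veins and lymphatics had 1 called gene in each stage, the retinoid pathway 0 lower in EH and 0 higher in PH, and the nuclear receptors 0 higher and 0 lower in PH. The floor on dim signals, under which the median of all probes was -0.47 for EH against EL and 0.60 for PH against EH, called 601, 874, 1148 and 1138 probes for EH against EL, PH against PL, PL against EL and PH against EH. Nr2f1 probe 2 had -0.52 for the stage difference and -0.98 for PL against EL, and Nr2f2 had 1.30 and -1.55. It left 1 vein and lymphatic gene called higher in PH, 0 retinoid genes higher in PH and 0 nuclear receptors lower in PH.

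Scaling to the 75th percentile, which moved the median of all probes to -0.18 for EH against EL and 0.19 for PL against EL, turned the stage difference of Nr2f1 probe 1 to 0.046 and PL against EL of Nr2f6 to 0.036, neither past the test, and 1 ventricular gene was called higher in EH. The slide term gave 1 ventricular gene higher and 0 retinoid genes lower in EH. Under both settings the ventricular gene was Irx5 (log2 difference 1.59 in each, adjusted p = 0.0235 with the scaling and 0.042 with the slide term). With only the 2 groups in the fit, 1 vein and lymphatic gene was called higher in EH, and 0 nuclear receptors were called lower in PH, as with the methods' test. The mean over both Nr2f1 probes had a stage difference of 0.27 and -1.71 for PL against EL (called). The cause of these changes was not tested.

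Without single samples, the stage difference ranged from -0.40 to 0.17 for Nr2f1 probe 1 and from 1.52 to 1.88 for Nr2f2, and PH against EH of Nr2f1 probe 2 from -1.62 (called, without PH sample 5) to -1.40. Called genes ranged from 1 to 2 for veins and lymphatics higher in EH and from 0 to 1 for the same list lower in PH, for nuclear receptors lower in EH and lower in PH, for retinoid genes higher and lower in EH and for ventricular genes higher in EH. Signals under the background limit set what could be compared in PL.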
